A study of Mus musculus with 20 samples.

Results

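Red blood cell transcripts were examined as 5 genes of the deposited heart table: Hba-a1 and Hba-a2, which encode the alpha chains of adult hemoglobin, Hbb-bs and Hbb-bt, which encode its beta chains, and Alas2, the erythroid form of aminolevulinate synthase. They were taken by name from a table of 29339 genes, and all 5 were found and passed the filter on low counts in each test. The libraries came from hearts of C57BL/6 mice aged 8 weeks, wild type (WT) or lacking Tecrl (TECRL-/-, written KO), a gene linked to catecholaminergic polymorphic ventricular tachycardia. By label, 5 of the 20 libraries were of male WT hearts and 5 of male KO hearts, while 3 were of female WT hearts and 7 of female KO hearts. Mice of all groups were killed under pentobarbital anesthesia and their hearts were frozen. The kind of deletion, whether RNA came from the entire heart, and whether the hearts were rinsed or perfused to clear blood, are not given in the sources used here.

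Alpha and beta globin chains pair with heme to form hemoglobin. Red cells lose their nucleus as they mature and carry globin mRNA left from the precursor stage, most of all in reticulocytes, which circulate. Alas2 makes the first precursor of heme in the erythroid line, whereas Alas1 does this in other tissues. Heart muscle stores oxygen with myoglobin, and globin mRNA in heart RNA is commonly read as blood held in its vessels and chambers.

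The libraries held 12540002 to 20038593 counts each and carry 2 kinds of names. Those named S1 to S12 hold 3 libraries of each group. The others, WT1 and WT2 with TKO1 through TKO6, hold 2 libraries each of male WT and male KO and 4 of female KO by label. These are called the S and the WT/TKO libraries here, and the labels do not say what the names stand for. Heart muscle transcripts were abundant in all 20 (Myh6, a myosin heavy chain, at 1530 to 3158 FPKM, the count scaled by gene length and library total). Tecrl was at 24.5 to 46.5 FPKM with overlapping WT and KO libraries, so its level did not separate the genotype labels. By Xist and Y-linked genes, 6 libraries went against their sex label (S7, S8 and S9, labelled male WT, and S4, S5 and S6, labelled female KO), and the fits of KO against WT are also given without them. Library S7 stood apart, with the lowest globin level, the highest B cell transcripts (Igkc, an antibody light chain, at 222 FPKM) and 1168 FPKM of the atrial peptide gene Nppa. Atrial transcripts were very unequal, with Myl7, the atrial myosin light chain, from 0.127 FPKM in TKO6 to 4162 in S11 (median 2.49).

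The globin genes lie as neighbouring copies. On GRCm38, Hba-a1 (ENSMUSG00000069919) is at chr11:32283511-32284465 and Hba-a2 (ENSMUSG00000069917) at chr11:32296489-32297298, both on the plus strand. Hbb-bs (ENSMUSG00000052305) is at chr7:103826534-103828096 and Hbb-bt (ENSMUSG00000073940) at chr7:103812524-103813996, both on the minus strand. Alas2 (ENSMUSG00000025270) is at chrX:150547375-150570638 on the plus strand, where its exons overlap those of Apex2 and Mir3620 on the other strand. Without strand in the counting, reads from such an overlap cannot be told apart. All 5 are protein coding in GENCODE release M21.

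The copies are shown at their only coding difference, since the split of reads between them rests on such bases. The coding sequences of Hba-a1 and Hba-a2 differed at 1 of 429 bases (C381T, counted from 1 at the A of the start codon), and those of Hbb-bs and Hbb-bt at 1 of 444 (C417T). Each line gives 41 bases of the exon from 5′ to 3′ on the gene's strand, with the differing base in capitals.
Hba-a1, chr11:32284323-32284363: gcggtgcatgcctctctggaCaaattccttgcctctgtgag
Hba-a2, chr11:32297140-32297180: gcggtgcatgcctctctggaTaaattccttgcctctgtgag
Hbb-bs, chr7:103826672-103826712: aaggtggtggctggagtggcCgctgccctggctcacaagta
Hbb-bt, chr7:103812663-103812703: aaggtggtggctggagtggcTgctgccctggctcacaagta
Of all stretches of 150 bases, the read length, 266 were common to the Hba-a1 and Hba-a2 transcripts (48.4% of those of Hba-a1 and 65.7% of those of Hba-a2). For Hbb-bs and Hbb-bt 281 were common (58.7% and 50.7%). These shares compare annotated transcripts, and the part before the start codon was 196 bases in Hba-a1 and 35 in Hba-a2. Reads placed on the genome may therefore fit both alpha copies more often. A read from such a stretch fits either copy, so the level of 1 copy alone is less certain than the sum of a pair.

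The promoters are shown as background on the 5 genes, and their part in the levels between libraries was not tested. Each line gives the 250 bases before the RefSeq start (GRCm38.p6), and capitals mark motifs found on either strand. For GATA the letters searched were AGATAA and, in the same way, TGATAA. For the TATA box they were ATATAA, for the Kruppel-like box they were CACCC, and for the box named after its letters they were CCAAT. Matches did not overlap.
Hba-a2, chr11:32296242-32296491, plus strand: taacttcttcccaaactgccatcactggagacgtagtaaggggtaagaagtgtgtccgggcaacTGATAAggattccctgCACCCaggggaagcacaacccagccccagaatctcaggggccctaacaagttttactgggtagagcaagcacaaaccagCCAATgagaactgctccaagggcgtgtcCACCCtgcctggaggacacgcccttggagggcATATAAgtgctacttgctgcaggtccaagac
Hbb-bs, chr7:103827929-103828178, minus strand: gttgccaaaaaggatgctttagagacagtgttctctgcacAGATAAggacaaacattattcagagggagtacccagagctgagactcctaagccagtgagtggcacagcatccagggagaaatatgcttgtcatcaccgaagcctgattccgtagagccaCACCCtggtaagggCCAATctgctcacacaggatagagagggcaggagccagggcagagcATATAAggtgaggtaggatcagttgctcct
Hbb-bt, chr7:103813924-103814173, minus strand: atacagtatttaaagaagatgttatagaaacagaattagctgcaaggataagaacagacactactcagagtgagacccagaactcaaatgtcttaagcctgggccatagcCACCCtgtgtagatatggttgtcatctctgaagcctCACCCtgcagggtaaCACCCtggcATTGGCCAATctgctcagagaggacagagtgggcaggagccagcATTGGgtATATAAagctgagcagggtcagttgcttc
Alas2, chrX:150547167-150547416, plus strand: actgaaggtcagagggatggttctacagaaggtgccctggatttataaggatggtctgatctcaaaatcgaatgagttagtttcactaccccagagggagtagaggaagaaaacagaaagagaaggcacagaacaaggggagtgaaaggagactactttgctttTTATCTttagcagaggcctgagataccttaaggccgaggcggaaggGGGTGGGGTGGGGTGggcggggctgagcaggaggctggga
The Hba-a1 window is the same sequence, shifted by 3 bases, over 297 bases when 50 bases after the start are included. The Hbb-bs and Hbb-bt windows were identical at 71.3% of aligned positions. Hba-a1, Hba-a2 and Hbb-bs held all 4 motifs, Hbb-bt held all but GATA, and Alas2 held GATA and CACCC. Over 32851 RefSeq promoters, each with 250 bases before and 50 bases after the start, GATA was found in 18.6% and CACCC in 57.5%. CCAAT was found in 37.4%, TATA in 9.82% and all 4 in 0.533%. A match is a run of letters only and no measure of binding.

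Globin transcripts were present in every heart library but at very unequal levels. The 4 globin genes took 0.00307% of counts in S7 (95% Wilson interval 0.00279% to 0.00338%, 410 counts) and 0.185% in S11, with a median of 0.0404%. On the FPKM scale their sum ran from 39.6 to 2401, a range of 60.6-fold, and of 12.6-fold without S7. Intervals here cover counting error only, and the range between libraries was far wider than they are. Fewer red cells and less RNA per red cell cannot be told apart in bulk heart RNA.

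Hbb-bs had the highest FPKM of the 5 in every library. Its FPKM was 230 in WT1, 335 in WT2, 20.3 in S7, 1133 in S8 and 403 in S9 among libraries labelled male WT. It was 346 in S10, 1203 in S11, 382 in S12, 104 in TKO5 and 102 in TKO6 among those labelled male KO. S7 lay below every KO library and S11 above every WT library, and the other 4 libraries of each group lay within the range of the other group. Among female WT libraries, Hbb-bs was at 172 FPKM in S1, 608 in S2 and 559 in S3, and in the 7 labelled female KO it ran from 131 to 463 with a median of 226. The group means were 446 ± 239 in female WT (SD, n = 3), 427 ± 453 in male KO (SD, n = 5), 424 ± 422 in male WT (SD, n = 5) and 241 ± 117 in female KO (SD, n = 7). In this order the first 3 means differed from their neighbours by less than either SD, and the step from male WT to female KO was larger than the SD of female KO but smaller than that of male WT.

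Hba-a1 was the major alpha globin transcript counted. Among libraries labelled male WT it was at 176 FPKM in WT1, 264 in WT2, 14.9 in S7, 602 in S8 and 272 in S9. In those labelled male KO it was at 211 in S10, 838 in S11, 268 in S12, 69.4 in TKO5 and 75.9 in TKO6. S7 was again lowest and S11 highest of all 20. Among the libraries labelled female, WT held 91.8 in S1, 434 in S2 and 376 in S3, and KO ran from 84.1 to 241 with a median of 129. S1 lay within the range of the female KO libraries, and S2 and S3 above it.

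Hba-a2, the minor alpha copy in these counts, had 21 to 1763 counts per library. Libraries labelled male WT held 12.4 FPKM in WT1, 15.2 in WT2, 2.36 in S7, 97.1 in S8 and 41.0 in S9. In those labelled male KO it was at 33.4 in S10, 199.96 in S11, 40.2 in S12, 5.14 in TKO5 and 7.94 in TKO6. Every WT/TKO library lay below every S library except S7. Libraries labelled female WT held 17.9, 74.4 and 64.0 FPKM (S1, S2 and S3), and those labelled female KO ran from 7.29 to 43.5 with a median of 16.0.

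Hbb-bt, the minor beta copy, ran from 2.02 FPKM in S7 to 160.0 in S11 with a median of 31.6 over 20 libraries. Alas2 was the lowest of the 5, from 0.436 FPKM (14 counts) in S7 to 14.0 (556 counts) in S8, with a median of 2.86. S8 stood above S11 for Alas2 alone, where S11 held 10.7 FPKM. The plot of levels by group shows the same order of libraries in each panel for most libraries.

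**Figure D1:**
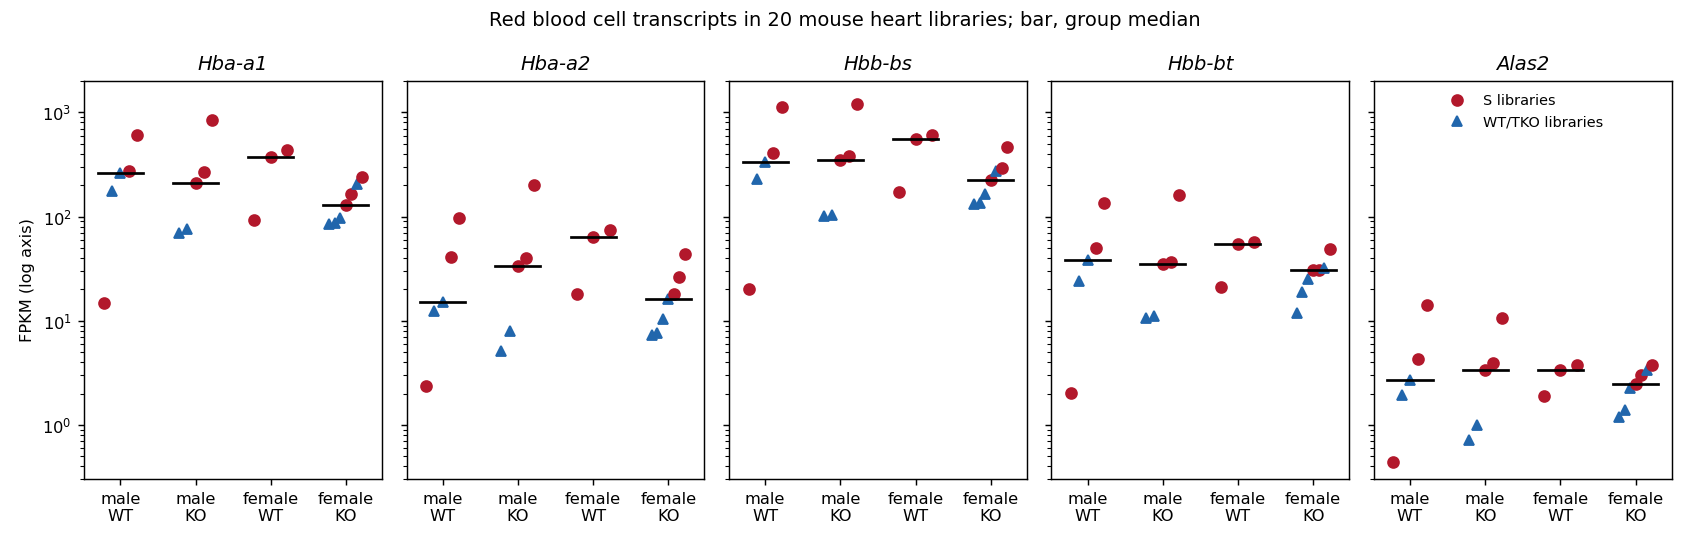
FPKM (log axis) of Hba-a1, Hba-a2, Hbb-bs, Hbb-bt and Alas2 in 20 heart libraries by labelled group, with 1 point per library, colour and shape for the S and WT/TKO libraries and a bar at the group median. The S libraries labelled male span the whole range, from S7 at 20.3 FPKM of Hbb-bs to S11 at 1203, and the groups overlap in every panel.

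Few genes varied as much between libraries. The SD of log2 CPM (counts scaled to library size, on the log2 scale) over 20 libraries was 1.30 for Hba-a1, 1.50 for Hba-a2, 1.32 for Hbb-bs, 1.29 for Hbb-bt and 1.07 for Alas2. Of 15187 genes past the filter, 0.362% to 1.13% had a larger SD than these. Without S7 the SDs were 0.968 to 1.38, and 0.303% to 1.12% of genes had a larger one.

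The first comparison asked whether loss of Tecrl went with another level of red cell transcripts. In the libraries labelled male, no member passed the test (edgeR's quasi-likelihood test with library series as a covariate, Benjamini-Hochberg adjusted p under 0.05). For KO against WT, the log2 fold change was -0.43 for Hbb-bs (SE 0.787, 95% interval -2.15 to 1.30, adjusted p = 0.928) and -0.31 for Hba-a1 (SE 0.792, adjusted p = 0.949). It was 0.21 for Hba-a2 (adjusted p = 0.969), -0.41 for Hbb-bt (adjusted p = 0.933) and -0.58 for Alas2 (adjusted p = 0.893). None of 14481 genes tested was called there (0%), and 688 had an unadjusted p under 0.05, while DESeq2 called 12. With the thresholds that the methods state, a p under 0.05 before adjustment and a log2 change of 0.58 or more either way, 0 of 5 members and 2.09% of all genes were called. Differences within such an interval were not detectable beside the spread between libraries.

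With male labels, the point estimates of all members but Alas2 differed in sign between the S and the WT/TKO libraries, a difference that was not tested. In the S libraries the summed globin FPKM was 924 ± 973 in WT (SD, n = 3) and 1251 ± 997 in KO (SD, n = 3), and Hbb-bs had a log2 fold change of 0.26 (edgeR, adjusted p = 0.986) and Alas2 of -0.12 (edgeR, adjusted p = 0.992). In the WT/TKO libraries the sum was 443 and 653 in WT1 and WT2 and 190.0 and 196 in TKO5 and TKO6. There Hba-a1 was at -1.61 (edgeR, adjusted p = 0.0396), Hbb-bs at -1.47 (adjusted p = 0.0436) and Hbb-bt at -1.53 (adjusted p = 0.054), while Alas2 at -1.45 and Hba-a2 at -1.09 did not pass. So Hba-a1 and Hbb-bs were lower in KO among these 4 libraries, and they were the 2 genes called of 13177 tested (0.0152%). The libraries are 2 per group and were set apart after the values were seen. Leaving out S8 turned Hba-a1, Hbb-bs, Hbb-bt and Alas2 to higher in KO (log2 fold changes 0.13 to 0.20), and leaving out S11 gave -0.67 to -1.13 over the 5 members. Without both, they lay between -0.47 and -0.06, and 0 of 5 were called. Without the libraries that went against their sex label, which leaves no WT in the S series, they lay between -1.61 and -1.09 with no call.

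In the libraries labelled female, KO was lower than WT in 4 of 5 members by point estimate and none passed the test. The log2 fold change was -0.80 for Hba-a1 (SE 0.486, 95% interval -1.85 to 0.24, adjusted p = 0.401) and -0.87 for Hba-a2 (SE 0.467, adjusted p = 0.342). It was -0.50 for Hbb-bs (adjusted p = 0.563), -0.30 for Hbb-bt (adjusted p = 0.726) and 0.01 for Alas2 (adjusted p = 0.992). Of 14511 genes, 8 were called (0.0551%), and with the thresholds of the methods 9.99% of all genes and 0 of 5 members. All WT libraries here are S libraries, so with the series covariate the comparison rests on S1, S2 and S3 against S4, S5 and S6. S1 held 303 FPKM of summed globin beside 1174 in S2 and 1053 in S3. With each library left out in turn, only the fit without S1 called members, and the reason was not tested. Without S1, Hba-a1 was at -1.25 (edgeR, adjusted p = 0.0275) and Hba-a2 at -1.30 (adjusted p = 0.0222), and 2408 genes were called in all (16.8%). Those 2 were also called with no filter on low counts, where 4.06% of all genes were. Without the libraries against their sex label Hba-a2 alone was called (-2.37, edgeR adjusted p = 0.0272, beside 2.57% of all genes), but there the WT libraries are S and the KO libraries WT/TKO, so genotype and series cannot be told apart.

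No member passed the test of a difference in KO effect between the sex labels. The genotype by sex term, female minus male, was 0.07 for Hbb-bs (SE 1.04, edgeR adjusted p = 0.978) and 0.93 for Alas2 (SE 0.938, adjusted p = 0.623), and 0 of 5 members passed. It called 0% of 15187 genes, with 2371 at an unadjusted p under 0.05 and 19 called by DESeq2. In the S libraries all 6 labelled WT held Xist and all 6 labelled KO held Y-linked transcripts, so genotype and sex cannot be told apart there.

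**Figure D2:**
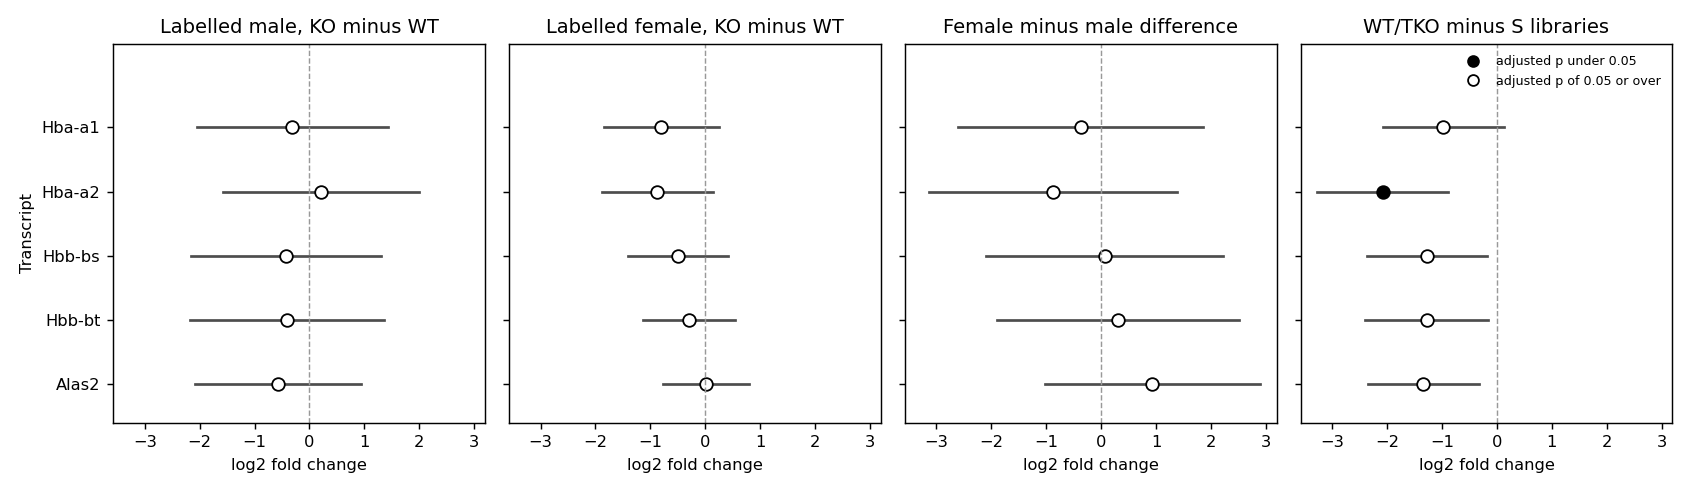
Log2 fold change of each transcript (point) with its 95% interval (line) from edgeR in 4 comparisons: KO minus WT in libraries labelled male and female, the female minus male difference of these, and WT/TKO minus S libraries. Only Hba-a2 in the last panel, at -2.08, is filled as called at an adjusted p under 0.05, and all intervals of the genotype comparisons cross 0.

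The log2 differences of the WT/TKO from the S libraries within labelled groups were below 0 for all 5 members, but only Hba-a2 passed the test. Its log2 difference was -2.08 (SE 0.57, 95% interval -3.27 to -0.90, edgeR adjusted p = 0.0187). Alas2 was at -1.34 (SE 0.485, adjusted p = 0.0674), Hbb-bt at -1.28 (adjusted p = 0.109), Hbb-bs at -1.27 (adjusted p = 0.103) and Hba-a1 at -0.97 (adjusted p = 0.218). The 1 call in 5 members stands beside 14.7% of 15187 genes called in this comparison. Without S7 all 5 were called (adjusted p from 0.00251 to 0.0448) beside 17.2% of all genes, and without TKO5 none was (Hba-a2 adjusted p = 0.0518) beside 10.3%. Without TKO4, Alas2 joined Hba-a2 (adjusted p = 0.0412, 15.4% of all genes), as it did with DESeq2 (adjusted p = 0.0349, 19.3% of all genes). In the KO libraries alone, where 11.1% of genes were called, Hba-a2 was at -2.30 (adjusted p = 0.0138) and Hbb-bs at -1.52 (adjusted p = 0.0229).

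Other listed genes were lower in the WT/TKO libraries too. For calls in that direction the share of all genes was 8.16%, and for higher ones 6.55%, with a median log2 difference of 0.00030 over all genes. Of the late erythroid list, 5 of 12 genes were lower and 0 higher (median -0.29), among them Tent5c at -1.24 (SE 0.357, edgeR adjusted p = 0.0251) and Car2, a carbonic anhydrase, at -0.55 (SE 0.121, edgeR adjusted p = 0.00577). Of the heme and globin breakdown list, 3 of 8 were lower and 0 higher (median -0.25), as in count without S7. These were Hp (haptoglobin) at -3.54, Hpx (hemopexin) at -4.66 and Cd163, the haptoglobin-hemoglobin receptor, at -0.45 (edgeR adjusted p of 0.00147, 0.00189 and 0.00254). The heme enzymes had 0 of 8 called, mitochondrial iron and heme transport 0 of 11 (median 0.057) and erythroid transcription factors and receptors 0 of 7 (median -0.15). The red cell membrane list had 2 higher and 1 lower of 12, with Epb41 (protein 4.1) at 0.31 (edgeR adjusted p = 0.0156). Among markers of other cells, 10 of 13 T and NK genes were lower (median -2.08), as were 4 of 6 monocyte genes (-1.41), 1 of 9 neutrophil, 1 of 7 platelet and 1 of 5 B cell genes. Of the atrial muscle genes 8 of 9 were lower (median -4.13), and of the heart muscle genes 0 were lower and 2 of 12 higher. Without S7 the counts lower were 7 of 12 for the late erythroid, 11 of 13 for the T and NK, 4 of 6 for the monocyte, 2 of 5 for the B cell and 8 of 9 for the atrial list, with 9.32% of all genes lower. The part of these lists in the lower Hba-a2 level was not tested.

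The 5 transcripts rose and fell together across libraries. Over 20 libraries, the Pearson r of log2 CPM was 0.990 for Hba-a1 with Hbb-bs (Spearman rho 0.971) and 0.989 for Hbb-bs with Hbb-bt (rho 0.986). The loosest pair was Hba-a2 with Alas2, with r = 0.917 (rho 0.914). Each of the 10 pairs had a permutation p of 1e-05, the smallest that 100000 resamples give, and an adjusted p of 1.8e-05 over the 18 relations computed. Without the 2 libraries farthest from the median, S7 and either S11 or S8, r was 0.858 to 0.979. Within the 12 S libraries r was 0.932 to 0.993, and within the 8 WT/TKO libraries 0.831 to 0.985. All 10 pairs also passed within each series and without each library in turn.

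**Figure D3:**
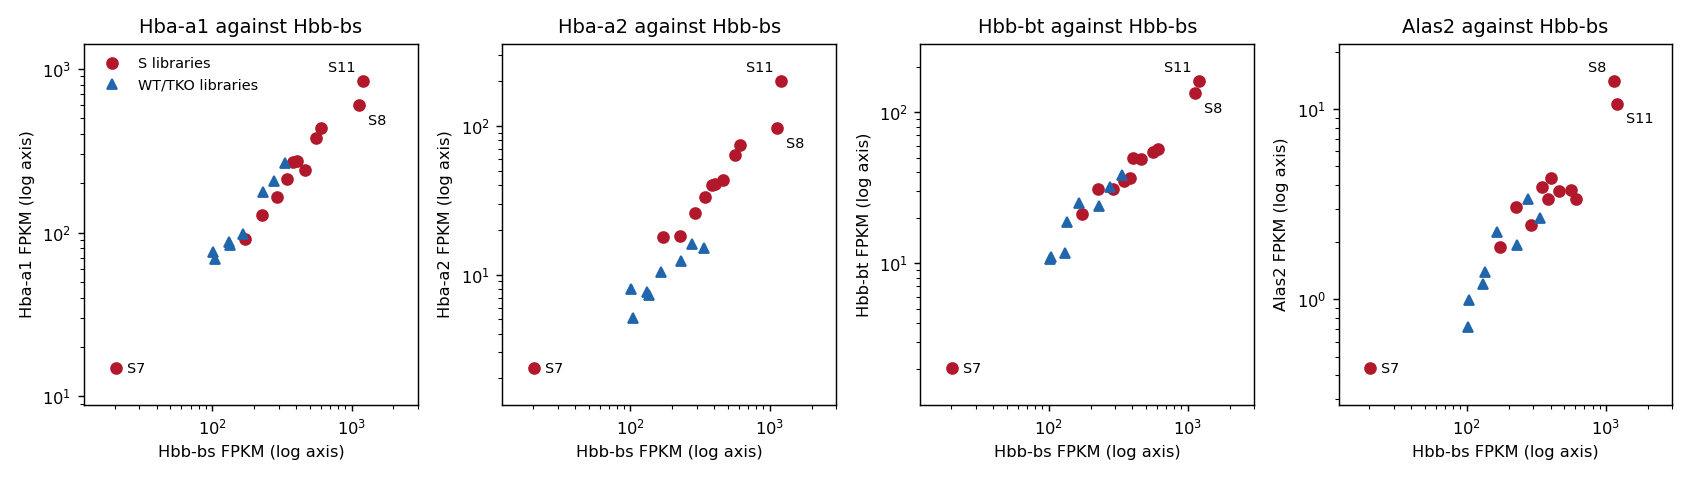
FPKM of Hba-a1, Hba-a2, Hbb-bt and Alas2 against that of Hbb-bs (both axes log) in 20 libraries, with S libraries as circles and WT/TKO libraries as triangles. Points follow a line from S7 to S11 in each panel, and for Hba-a2 the triangles lie below the circles at the same Hbb-bs.

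Ratios within a library show where the transcripts did not keep step. Hba-a2 was 0.169 ± 0.0262 of Hba-a1 on the FPKM scale in the S libraries (SD, n = 12) and 0.0831 ± 0.0167 in the WT/TKO libraries (SD, n = 8). The S libraries ran from 0.141 to 0.239 and the WT/TKO libraries from 0.0576 to 0.106, with no overlap. The difference was -1.04 on the log2 scale, or 0.486-fold (2-sided exact permutation test, p = 1.59e-05, the smallest possible, adjusted p = 0.000191 over 12 ratio tests). It was present within genotype: 0.171 ± 0.0357 against 0.0894 ± 0.0134 in the KO libraries (SD, n = 6 each, exact permutation p = 0.00216), and 0.168 ± 0.0153 in the S libraries labelled WT (SD, n = 6) beside 0.0576 and 0.0703 in WT2 and WT1. With labels permuted only within labelled groups it was -1.03 (exact permutation p = 0.000286, the smallest of 3500 arrangements). The tests within genotype and within labelled groups were added after the values were seen.

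As a share of counts, Hba-a2 made up 10.4% (S4) to 16.4% (S11) of alpha globin counts in the S libraries and 4.51% (WT2) to 8.02% (TKO1) in the WT/TKO libraries. The nearest libraries were S4 (95% Wilson interval 9.04% to 11.9%, 1753 counts) and TKO1 (6.62% to 9.68%, 1210 counts), whose intervals overlap. S7, with 183 alpha counts, was at 11.5% (7.63% to 16.9%), inside the S range although its globin level was the lowest of all. Because the copies are identical over most of the coding sequence, this is a ratio of reads as assigned, and the part of read assignment in it was not tested.

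The other ratios did not pass the test between the series. Hbb-bt was 0.111 ± 0.0152 of Hbb-bs in the S libraries (SD, n = 12) and 0.116 ± 0.0199 in the WT/TKO libraries (SD, n = 8), with a log2 difference of 0.05 (exact permutation p = 0.612). The alpha to beta globin ratio ran from 0.551 in S8 to 0.776 in S7, with means of 0.661 ± 0.0895 and 0.679 ± 0.0711 (log2 difference 0.04, exact permutation p = 0.601). Alas2 was 0.555% of Hbb-bs in S2 to 2.15% in S7, where it rests on 14 counts, and its log2 difference between series was -0.06 (exact permutation p = 0.792). The series overlapped in each of these 3 ratios.

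No ratio passed the test between KO and WT. With male labels, Alas2 to Hbb-bs was lower in KO by 0.34 on the log2 scale (fold 0.791, exact permutation p = 0.286) and Hba-a2 to Hba-a1 was at 0.30 (p = 0.508 by exact permutation). In those labelled female, Hba-a2 to Hba-a1 was at -0.65 (exact permutation p = 0.05, adjusted p = 0.30), and at -0.17 among the S libraries alone (exact permutation p = 0.30, where 3 against 3 cannot go below 0.10). Alas2 to Hbb-bs was at 0.51 (exact permutation p = 0.10, adjusted p = 0.40), Hbb-bt to Hbb-bs at 0.19 and alpha to beta globin at -0.16. With 7 against 3 libraries the smallest p is 0.0167, which cannot pass an adjustment over 12 tests on its own.

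**Figure D4:**
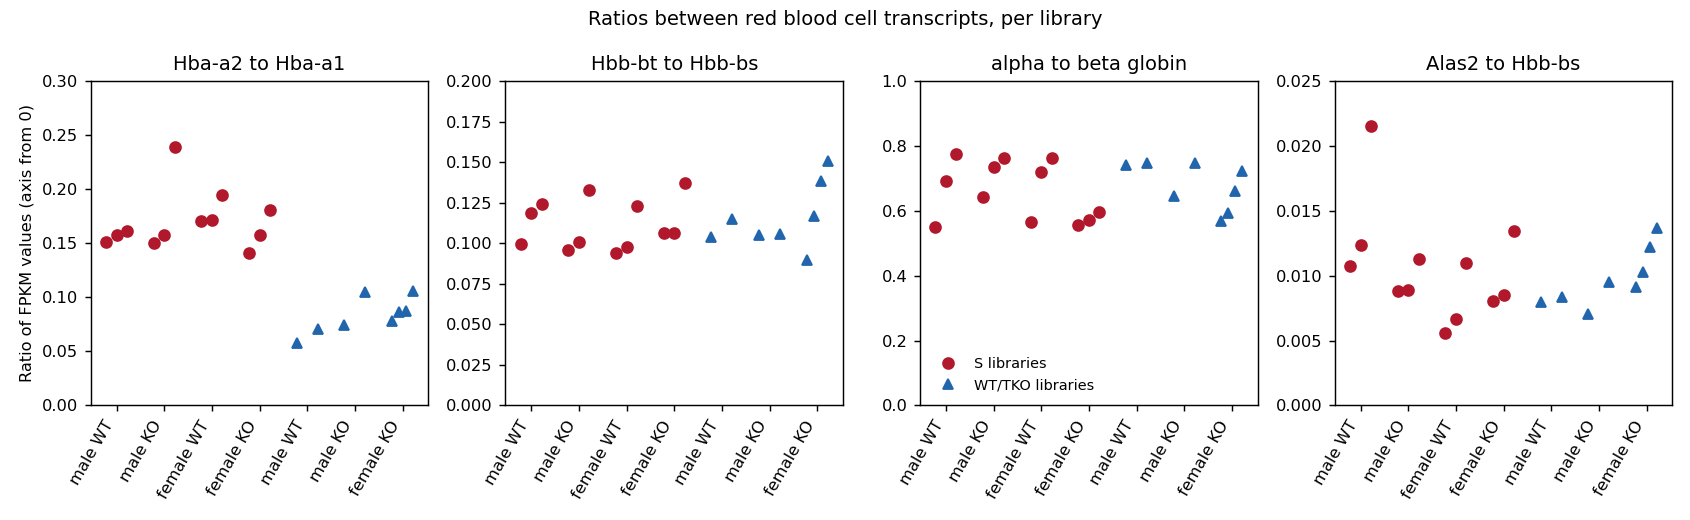
Ratios of FPKM values per library for Hba-a2 to Hba-a1, Hbb-bt to Hbb-bs, alpha to beta globin and Alas2 to Hbb-bs, with axes from 0 and libraries grouped by series and label (no WT/TKO library is labelled female WT). The triangles of the WT/TKO libraries lie below all circles in the first panel only, at 0.0576 to 0.106 against 0.141 to 0.239.

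Globins of other stages and some genes of red cell precursors were at or near 0 in these hearts. Of the other globins, Hba-x, Hbb-y, Hbq1a and Hbq1b were in the table and had at most 3 counts in any library, and 3 counts was taken as the floor. Klf1 and Gata1, transcription factors of erythroid precursors, reached 5 and 8 counts. Of that list of transcription factors and receptors, 7 of 11 genes in the table nevertheless passed the filter, such as Lmo2 with up to 298 counts, and other cell types also express several of these. Slc4a1, the band 3 anion exchanger of the red cell membrane, ran from 0 to 0.440 FPKM. Its r with Hbb-bs was 0.716 over 20 libraries, a description from at most 29 counts in a library. Of the red cell membrane and skeleton list, 12 of 19 genes in the table passed the filter, and their levels came mainly from genes that other heart cells also use, such as the water channel Aqp1 (223 to 564 FPKM), Tmod1 and Ank1. The median r of these 12 with Hbb-bs was -0.17, with 2 above 0, and was -0.30 without S7, -0.15 within the S and 0.019 within the WT/TKO libraries.

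Genes of the late erythroid list had higher r values with Hbb-bs. Of 12 past the filter, all had an r above 0 and 7 an r above 0.5, with a median of 0.524, while the median over 15182 genes was 0.005 and 7.21% had an r above 0.5. Ube2l6, a ubiquitin-conjugating enzyme, was at r = 0.684, Mkrn1 at 0.666 and Bpgm, which makes the 2,3-bisphosphoglycerate that red cells hold, at 0.584. The abundant genes of the list were Rgcc (106 to 317 FPKM, r = 0.683), Prdx2 (69.5 to 101, r = 0.530) and Bcl2l1 (26.2 to 44.4, r = 0.448). Without S7 the r of these 3 was 0.423, 0.297 and 0.065, while the list median was 0.664. The list median was 0.543 within the S and 0.293 within the WT/TKO libraries, where Rgcc was at -0.25.

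Heme enzymes other than Alas2 had r values on both sides of 0. The 8 genes of that list had a median r of -0.07, with 4 above 0, and medians of -0.24 without S7, -0.10 within the S and 0.103 within the WT/TKO libraries. Alas1 was at 17.2 to 47.0 FPKM (r = 0.066), above Alas2 in every library, and Fech, which inserts iron into heme, was at 21.02 to 45.3 (r = -0.33), and Urod at 16.8 to 26.5 (r = 0.103). The 11 genes of mitochondrial iron and heme transport past the filter had a median r of 0.007 (0.139 without S7), led in level by Tmem14c, Slc25a39 and Slc25a28. Heme and globin breakdown genes had a median of 0.047, with Hmox1 (heme oxygenase) at r = -0.18, Hmox2 at -0.15 and Lrp1 at -0.15, its genes of highest level. Of the same list, Blvra (biliverdin reductase) was at 0.753 and Hpx (hemopexin) at 0.564, and the list median was 0.471 without S7, -0.008 within the S and 0.273 within the WT/TKO libraries. Erythroid transcription factors and receptors past the filter had a median of -0.08 (0.037 without S7) and were led by Ldb1, Lmo2 and Zfpm1. None of the listed genes passed the edgeR test of KO against WT with either sex label.

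Markers of other blood cells were compared because retained blood would carry them too. The median r with Hbb-bs was 0.491 for 13 T and NK cell genes (all above 0), 0.375 for 9 neutrophil genes, 0.202 for 6 monocyte genes, 0.063 for 7 platelet genes and -0.32 for 5 B cell genes. Without S7 these medians were 0.673, 0.529, 0.481, 0.468 and 0.237. Within the S libraries they were 0.357, 0.418, -0.002, 0.094 and -0.74, and within the WT/TKO libraries 0.431, -0.10, 0.005, -0.24 and 0.637. Of these 5 lists, the T and NK list was the one whose median stayed above 0.3 in each of these sets. The median of every other list changed sign between them. The T and NK list was led by Ccl5 (r = 0.684), Trbc2 (0.573) and Gzma (0.491), the neutrophil list by Lcn2, S100a9 and S100a8, the platelet list by Pf4, Itgb3 and Ppbp, the monocyte list by Ace, Plac8 and Chil3, and the B cell list by Igkc, Ighm and Cd79a. Their summed levels were 11.3 to 92.0 FPKM for neutrophil, 16.4 to 55.0 for platelet, 10.6 to 28.3 for monocyte, 1.12 to 34.5 for T and NK and 1.07 to 367 for B cell genes, the last at most 27.8 in the 3 groups without S7. The monocyte sum came mainly from Ace, with a median of 14.9 FPKM beside 16.7 for the sum. The platelet sum came mainly from Pf4, with a median of 16.4 FPKM beside 20.6 for the sum. In S7 the B cell sum (367) and the platelet sum (55.0, with Pf4 at 45.6) lay above the summed globin level of 39.6 FPKM. Whether Ace and Pf4 transcripts came from blood cells was not tested, so these sums are no measure of blood content.

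Single markers of other cells did not pass the test of correlation with Hbb-bs. The r of Hbb-bs was 0.38 with S100a8 (rho 0.411, permutation p = 0.102, adjusted p = 0.153), -0.37 with Pf4 (rho -0.01, adjusted p = 0.156) and -0.32 with Cd79a (rho -0.02, adjusted p = 0.212). It was 0.237 with Ly6c2 and -0.08 with Nppa (adjusted permutation p of 0.347 and 0.744). With Cd3e, which had at most 8 counts in a library and none in 5 libraries, it was 0.243 (adjusted permutation p = 0.347), a description at the floor of counting from which nothing is read. Without S7 the r was 0.612 with S100a8, 0.005 with Pf4, 0.212 with Cd79a, 0.426 with Ly6c2 and 0.413 with Nppa, so these values rest in part on that library. Within the S libraries the r in the same order was 0.355, -0.57, -0.77, 0.253 and -0.31, and within the WT/TKO libraries -0.30, -0.32, 0.702, -0.48 and -0.64. Library total (r = 0.197) and mitochondrial share of counts (r = 0.377) did not pass either (adjusted permutation p of 0.421 and 0.153), and without S7 they were at 0.059 and 0.030.

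**Figure D5:**
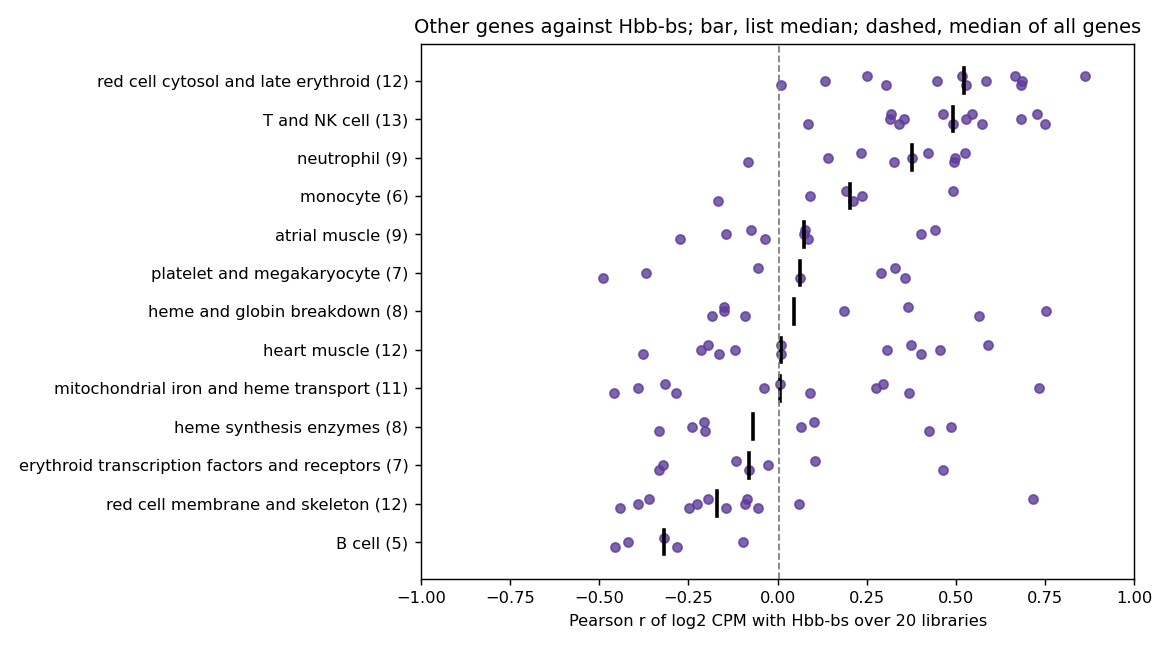
Pearson r of log2 CPM with Hbb-bs over 20 libraries for each listed gene past the filter (points), with the list median (bar), the number of genes in parentheses and the median of all genes (dashed, 0.005). The late erythroid list (median 0.524) and the T and NK list (0.491) lie to the right and the B cell list (-0.32, but 0.237 without S7) to the left.

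Of the 10 genes outside the members with a pattern most like Hbb-bs over 20 libraries, 9 are given here, with r from 0.775 to 0.819. They were Slfn8 (0.819), Mon1b (0.814), Men1 (0.814), Higd1b (0.809), Trappc6a (0.808), 9330151L19Rik (0.804), Rbp7 (0.782), Ggt5 (0.779) and Cdc42ep2 (0.775). Of these, 7 had their lowest level in S7. Without S7, their r was 0.561 to 0.784, and it was 0.775 to 0.878 within the S and 0.258 to 0.779 within the WT/TKO libraries. All points share the heart tissue, the library and its depth, and no p is given for genes ranked on this value. Mon1b moved only from 1.33 to 2.23 FPKM.

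Heart tissue markers were set beside the same libraries. The 12 heart muscle genes had a median r of 0.009 with Hbb-bs, led by Actc1, Myl2 and Mb (myoglobin, 1886 to 4362 FPKM, r = 0.008). Without S7 that median was -0.30 and Mb was at -0.52, while the median was 0.254 within the S and -0.19 within the WT/TKO libraries. The 9 atrial genes had a median of 0.074 and were led by Nppa, Myl7 and Nppb. Their median was 0.459 without S7 (Nppa 0.413), -0.28 within the S and 0.303 within the WT/TKO libraries. Nppa was at 1268 FPKM in S11 and 1168 in S7, the libraries with the highest and the lowest globin level, and at 7.71 in S8, which had the next highest. So high atrial transcripts went with high globin in S11 and with low globin in S7.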

How the data were processed

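Mouse heart RNA was sequenced in 20 libraries as 150 bp paired-end reads after poly(A) selection, and the groups were taken from the labels alone. The paper reports fewer mice than there are libraries, and the labels do not say whether each library is a separate mouse. The deposited table gives whole-number read counts per gene and library, not normalized, beside the FPKM that the authors derived from them. Checked on the table, FPKM is the count over the gene's exon length and the library total. The submitters' processing notes name HISAT2, HTSeq 0.6.1p2, DESeq2 1.26.0 and GRCm38. Whether counting used strand, and how reads that fit both copies of a globin gene were treated, are not given in the sources used here. Columns of the authors' own comparisons were not used. Totals of 12540002 to 20038593 counts per library set the precision, and Wilson intervals (95%) cover counting error only. The 44 pairs of libraries within groups all differed by more than counting noise.

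The members and the gene lists were chosen with earlier results of these data known. Named are the 5 members, the 10 genes most like Hbb-bs, and of each list the 3 genes of highest mean FPKM and any gene called for KO against WT (there was none). Other genes of the red cell, late erythroid and heme breakdown lists, and the list counts without S7, were added after values were seen. A few genes that the rule or lists hold are not reported here.

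Counts were tested with edgeR 4.0.16 (R 4.3.3, TMM normalization, quasi-likelihood test) over genes that reached 10 counts in 3 or more of the libraries fitted, with library series as a covariate and Benjamini-Hochberg adjustment over all genes tested. The fits of the series and of the genotype by sex term used all 20 libraries. Ratios were formed from FPKM and tested on the log2 scale by exact permutation, 2-sided. Correlations used log2 CPM and permutation tests with 100000 resamples, or exact enumeration within the 8 WT/TKO libraries. p-values measure the spread between libraries. Tested on simulated counts with 200 genes changed 4-fold, edgeR recovered 98.0% of these in the male comparison (14411 genes, 11 false calls) and 99.0% in the female comparison (14555 genes, 16 false calls). The simulated counts held no series difference and no genes varying together, so these shares are not the power for the members. Alternatives were DESeq2 1.42.0, limma 3.58.1 on log2(FPKM + 1), other filters, normalizations, covariates and sets of libraries. Positions are from GENCODE M21 and promoters from RefSeq (GRCm38.p6), where all 5 members matched. Ratios, correlations and plots were made in Python 3.11.15 (scipy 1.17.1, matplotlib 3.10.9).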

Additional observations from a re-analysis of the deposited data

Results flagged for a closer look

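Within the groups of 5 and 7 libraries, the highest or lowest library was compared with the others for the 5 members, the summed globin level and the 4 ratios. Its gap to the next library, over the range, passed the cut-off in 7 of 30 such tests, on values without logs. For normally distributed values about 1 in 20 would pass, and whether these values are so distributed was not tested. The comparison was not made on log2 values, so the 7 flags are a description only. Among libraries labelled male KO, S11 stood above the other 4 for Hba-a1 (838 FPKM against 69.4 to 268), Hba-a2 (199.96 against 5.14 to 40.2), Hbb-bs (1203 against 102 to 382), Hbb-bt (160.0 against 10.7 to 36.6) and the summed globins (2401 against 190.0 to 727). These 5 flags are of 1 library and of transcripts that move together, so they are not separate events. S11 also had the highest Hbb-bt to Hbb-bs ratio of that group, at 0.133 against 0.0957 to 0.105. Among libraries labelled male WT, S8 stood above the others for Alas2, at 14.0 FPKM against 0.436 to 4.34. In that group S8 was the library compared for each member, so the low level of S7 was not tested there.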

How the results depend on the processing

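No paired analysis was possible because the library numbers run on across the groups and the labels tie no number to a shared litter, animal or day. The count of members called for KO against WT was 0 of 5 with the labels male in all alternatives except the WT/TKO libraries alone, where it was 2. With the labels female it was 2 with no filter on low counts, 1 without the libraries against their sex label, and 0 to 2 with each library left out. For WT/TKO against S it was 2 with DESeq2, 4 with no filter, 2 in KO libraries alone, and 0 to 5 with each library left out, against 1 as reported. The genotype by sex count stayed at 0, the count of ratios at 1 wherever the series were compared, and that of correlated pairs at 10 in the alternatives run. Over all genes, calls for male labels numbered 0 as reported, 12 with DESeq2, 59 with no filter, 5 in the S and 2 in the WT/TKO libraries alone. For female labels they numbered 8 as reported, 383 with DESeq2, 1110 with no filter, 366 without the libraries against their sex label, 2 with no series covariate or in 1 fit of all libraries, 0 with 10 counts in every library, and 1 to 2408 with each library left out. For genotype by sex they were 0 as reported, 19 with DESeq2, 129 with no filter and 1127 without S1. For WT/TKO against S they were 2233 as reported, 2927 with DESeq2, 2733 with no filter, 1621 in KO libraries alone and 1569 to 2602 with each library left out. The cause of these changes was not tested.

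Directions that turned were of values that passed no test as reported. With male labels, Hba-a1 was at 0.0665 with no series covariate, 0.52 in the S libraries alone and 0.22 with limma. Hbb-bs was at 0.26 and Hbb-bt at 0.26 in the S libraries alone, and at 0.24 and 0.11 with limma. Hba-a2 was at -1.09 without the libraries against their sex label, -1.09 in the WT/TKO libraries alone and -0.0641 without S8 and S11. With female labels, Hbb-bt was at 0.027 in 1 fit of all libraries. There Alas2 was at -0.0046 with 10 counts required in every library, -0.29 with no series covariate and -0.56 without the libraries against their sex label. Leaving out each library gave, with male labels, -0.90 to 0.13 for Hba-a1, -0.67 to 0.75 for Hba-a2 and -0.95 to 0.19 for Hbb-bs. It gave -1.13 to 0.20 for Hbb-bt and -1.06 to 0.18 for Alas2, with S11 and S8 at the ends for all 5. With female labels it gave -0.65 to 0.011 for Hbb-bt and -0.26 to 0.18 for Alas2. The genotype by sex term ranged from -0.96 to 0.17 for Hba-a1, -0.71 to 0.56 for Hbb-bs, -0.51 to 0.97 for Hbb-bt and -0.13 to 1.40 for Alas2. Among ratios, the male difference in median was -0.0089 for Hba-a2 to Hba-a1 and -0.0116 for alpha to beta globin, whose range was -0.0668 to 0.0562 with each library left out. Between series, Hbb-bt to Hbb-bs ranged from -0.008 to 0.0992 and Alas2 to Hbb-bs from -0.135 to 0.0426, with 0.0597 in KO libraries alone.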
